A study of Mus musculus with 4 samples.

Results

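The 58 genes described here encode the machinery with which a cell divides its chromosomes. They comprise the kinases and cyclins that start mitosis, the spindle checkpoint and the factors of anaphase, the centromere and kinetochore, the chromosomal passenger complex, spindle motors, proteins of the central spindle and of cytokinesis, and proteins that condense chromosomes. They were chosen by function and were found by gene symbol, with 1 line for each gene in each table. They are 58 of the 21831 genes analyzed. All 58 were among the 12942 genes with an FPKM of 1 or more in 1 or more libraries (the genes tested). FPKM divides the fragments of a gene by the length of its transcript and by the mapped fragments of the library, so levels of different genes can be compared per length.

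The study asked which genes distinguish the cells of the postnatal mouse retina in which the promoter of Hes1 is active. Every library came from the retina of mice that carried a transgene in which the 2.5-kb Hes1 promoter drives a destabilised EGFP, and the strain is given as FVB/N. Cells positive for EGFP (pHes1_EPCs, labelled Hes1P) and cells negative for it (pHes1_ENCs, labelled Hes1N) were sorted at postnatal day 1 (P1) and postnatal day 4 (P4), with no treatment, and each of the 4 groups is 1 library. There were no replicates, so no difference below has a test, and each is a description of these libraries. EGFP reports the promoter and not a cell type, because retinal progenitors and Müller glia both use Hes1. The number of animals behind a library is not given in the sources used here.

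In mitosis, Cdk1 bound to a cyclin phosphorylates a large set of proteins, chromosomes condense, and kinetochores built on each centromere attach to the spindle. The spindle checkpoint holds the cell in metaphase until all kinetochores are attached, after which the anaphase promoting complex marks cyclin B and securin for destruction and the cell divides. Transcripts of most of these genes accumulate in G2 and M phase of dividing cells and are low in neurons that have left the cell cycle. In the newborn mouse retina the last progenitors are still dividing while rods, bipolar cells and Müller glia form from them.

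The low values showed that 1 read was worth 1.048 to 1.08 times as much FPKM in the other libraries as in P1 pHes1_ENCs. A higher worth of 1 read means a lower depth, so the 4 libraries were of similar depth. The deposited FPKM, already divided by library size, summed to between 342618 and 450080 over all lines. Markers of progenitors and early glia (15 genes) summed to an FPKM of 1190 in P1 pHes1_ENCs, 3610 in P1 pHes1_EPCs, 564 in P4 pHes1_ENCs and 3012 in P4 pHes1_EPCs, with none at 0 in any library. The 9 photoreceptor markers summed to 794, 52.8, 4715 and 935 in the same order, also with none at 0. The photoreceptor markers were lower in pHes1_EPCs for all 9 genes at both ages. The progenitor and glia markers were higher in pHes1_EPCs for 13 of 15 at P1, with Pax6 (-0.95) and Rax (-0.10) as the exceptions, and for all 15 at P4. Ccnd1 alone gave 1406 of the sum in P1 pHes1_EPCs.

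All 58 mitosis genes were higher in pHes1_EPCs than in pHes1_ENCs at P1, against 6688 of the 12942 genes tested. All 58 were higher at P4, against 7582 of the genes tested. Their median FPKM was 13.5 in P1 pHes1_ENCs, 42.1 in P1 pHes1_EPCs, 2.27 in P4 pHes1_ENCs and 19.1 in P4 pHes1_EPCs. Together they made up 0.322%, 1.03%, 0.0655% and 0.411% of the FPKM of all genes analyzed, in the same order. The levels in P4 pHes1_ENCs were the lowest of the 4 libraries for all 58 genes, and 10 genes were below an FPKM of 1 there but in no other library. Levels of 10 or more were held by 38 genes in P1 pHes1_ENCs, 57 in P1 pHes1_EPCs, 3 in P4 pHes1_ENCs and 49 in P4 pHes1_EPCs. In sorted bulk samples, fewer dividing cells and less of the transcript in each cell cannot be told apart.

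**Figure D1:**
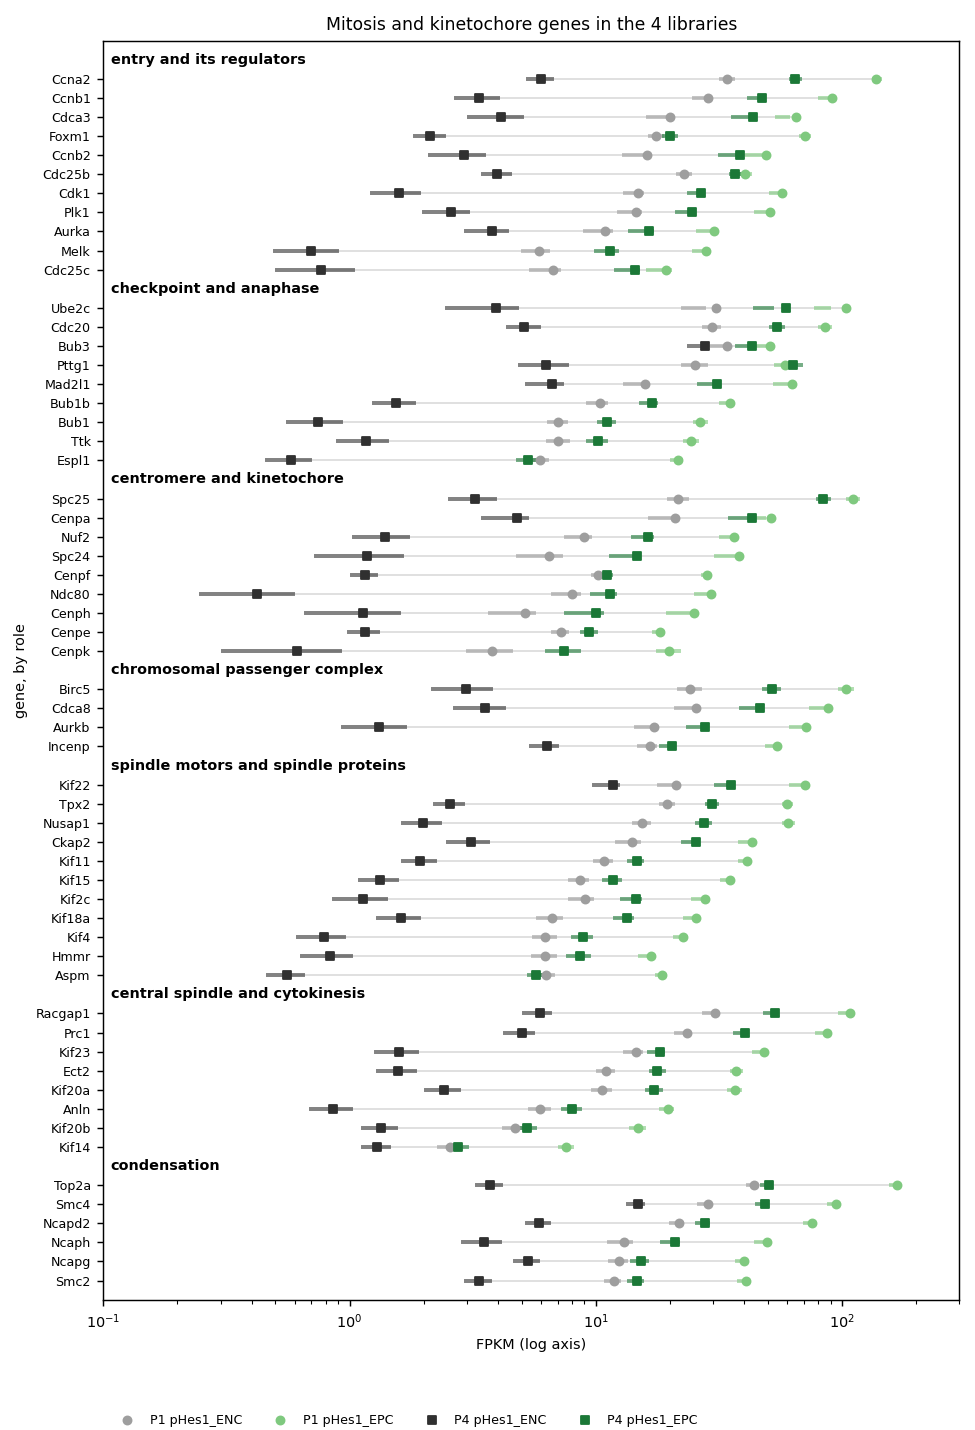
FPKM of each of the 58 genes (log axis) in the 4 libraries, grouped by role. Circles are P1, squares P4, grey and black pHes1_ENCs, and light and dark green pHes1_EPCs; each thick bar is the 95% interval that Cufflinks gives, which can end below its own point. The black squares (P4 pHes1_ENCs) are the lowest point of every gene, and the light green circles (P1 pHes1_EPCs) are the highest of every gene but Pttg1.

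The order of the libraries was almost the same for every gene. For 55 of the 58 genes the level fell from P1 pHes1_EPCs to P4 pHes1_EPCs, then to P1 pHes1_ENCs and last to P4 pHes1_ENCs. For Espl1 and Aspm, P1 pHes1_ENCs ranked above P4 pHes1_EPCs, and for Pttg1, P4 pHes1_EPCs ranked first. Positive cells at P4 thus had a higher FPKM as deposited than negative cells at P1 in 56 genes. The median ratio was 1.62, with a range from 0.893 for Espl1 to 3.87 for Spc25. The FPKM of all genes analyzed summed to 372019 in P4 pHes1_EPCs and 277437 in P1 pHes1_ENCs, the highest and the lowest sums of the libraries. Ratios near 1 therefore depend on the scaling, and this order was not computed under other scalings.

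Differences are given as log2(FPKM + 1) of one library minus that of another, and a gene was called when the difference passed 1. This scale understates the change of genes with low FPKM. At P1 the difference between pHes1_EPCs and pHes1_ENCs had a median of 1.70 over the 58 genes, against 0.02 over all genes tested, and 56 of the 58 genes were called higher in pHes1_EPCs, against 10.3% of all genes tested. At P4 the median was 2.79, against 0.15 over all genes tested, and again 56 genes were called, against 16.6% of all genes tested. As plain ratios of FPKM, the median gene was 3.43-fold higher in pHes1_EPCs at P1 and 9.84-fold higher at P4. Cufflinks gives a 95% interval for each FPKM, which covers counting error only. The difference between the near ends of these intervals was above 0 for all 58 genes at both ages. Below, a P1 or P4 difference is that between the fractions at this age on the log2 scale, pHes1_EPCs minus pHes1_ENCs, and a P1 or P4 ratio is the same comparison as a ratio of FPKM.

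The promoters of these genes are shown because their transcripts differed between the libraries almost as a block. In dividing cells many genes of this kind carry a CHR element, bound by the DREAM and MuvB complexes, and CCAAT boxes, bound by NF-Y. RefSeq promoter windows (assembly GRCm38.p6, 250 bases before to 50 bases after the start) were at hand for 49 of the 58 genes, in 54 windows. The strings TTTGAA and TTCGAA (CHR), CCAAT, and TTCCCGCC, TTTCGCGC and TTTGGCGC (E2F) were searched on both strands, and none of these strings contains another. The 120 bases before the start are printed 5′ to 3′ on the strand of the gene for 5 genes, with the CHR and CCAAT letters of either strand in capitals. They are Cdk1 (chr10:69352913-69353032, minus strand), the central kinase; Top2a (chr11:99024190-99024309, minus strand), which had the highest FPKM at P1; Ube2c (chr2:164769809-164769928, plus strand), the highest of the checkpoint and anaphase genes by mean FPKM over the 4 libraries; and Espl1 (chr15:102296173-102296292, plus strand) and Pttg1 (chr11:43425982-43426101, minus strand), the genes with the lowest and the highest difference with age in pHes1_EPCs.
Cdk1: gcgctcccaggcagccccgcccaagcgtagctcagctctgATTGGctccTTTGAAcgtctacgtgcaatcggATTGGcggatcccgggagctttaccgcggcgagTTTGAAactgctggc
Top2a: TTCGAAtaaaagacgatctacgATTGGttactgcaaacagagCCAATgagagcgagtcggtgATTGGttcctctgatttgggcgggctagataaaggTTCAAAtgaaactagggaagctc
Ube2c: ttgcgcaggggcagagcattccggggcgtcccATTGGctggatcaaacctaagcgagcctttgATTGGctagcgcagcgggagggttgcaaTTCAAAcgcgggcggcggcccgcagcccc
Espl1: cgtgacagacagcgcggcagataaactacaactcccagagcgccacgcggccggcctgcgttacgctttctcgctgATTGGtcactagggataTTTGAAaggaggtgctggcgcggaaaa
Pttg1: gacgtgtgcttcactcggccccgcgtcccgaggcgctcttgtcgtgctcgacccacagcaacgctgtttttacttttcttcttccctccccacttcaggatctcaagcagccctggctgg

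The stretches of Cdk1, Top2a, Ube2c and Espl1 each hold at least 1 CHR string and at least 1 CCAAT string, and that of Pttg1 holds neither, which says only that these letters are not in this window. Over the whole windows, 37 of the 49 genes (75.5%) held a CHR string, against 15.3% of 9102 genes tested and 21.7% of the 27025 genes of the table. A CCAAT string was present in 36 (73.5%), against 43.8% of the genes tested and 41.1% of the table, and 22 (44.9%) held at least 2, against 17.1% and 13.3%. Both CHR and CCAAT stood in the same window in 32 genes (65.3%), against 6.57% and 8.61%. An E2F string was found in 5 (10.2%), against 6.625% and 3.393%. When only the bases before the start were searched, the CHR count was 19 (38.8%, against 13.7% of the genes tested), since many of the CHR strings lay after the start. The median P1 difference was 1.66 over the 37 genes with a CHR string and 1.91 over the 12 without, and the median P4 difference was 2.79 and 2.66.

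Genes of entry into mitosis and its regulators (11 genes) had a median P1 difference of 1.65 and a median P4 difference of 3.12, and 10 and 11 of them were called higher in pHes1_EPCs. Cdk1, the central mitotic kinase (chr10:68799383-68815660 in NCBI37/mm9), had an FPKM of 14.8 in P1 pHes1_ENCs, 56.9 in P1 pHes1_EPCs, 1.58 in P4 pHes1_ENCs and 26.8 in P4 pHes1_EPCs. The negative cells of P4 stood far below the other 3 libraries, and the ratio of pHes1_EPCs to pHes1_ENCs was 3.84 (3.36 to 4.28 from the Cufflinks intervals) at P1 and 16.9 (12.5 to 21.9) at P4. Ccna2, cyclin A2, was the most abundant gene of the role, with 34.2, 138, 5.99 and 64.3 in the same order of libraries. Ccnb1, cyclin B1, had 28.7, 91.2, 3.36 and 47.4, and Plk1, a kinase needed for spindle assembly, had 14.5, 51.1, 2.57 and 24.6. For the cyclins as for Cdk1, the fractions were further apart at P4 than at P1. Relative to Cdk1, the level of Ccnb1 lay between 1.602 and 2.13 in all 4 libraries, while that of Ccnb2, cyclin B2, was 0.867 in P1 pHes1_EPCs and 1.44 in P4 pHes1_EPCs. The transcripts of Ccnb2 and Cdk1 are 1541 and 2886 bases long, and the trend with length given below was not subtracted from these ratios.

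Cdc25b and Cdc25c, phosphatases that activate Cdk1, had smaller differences between P4 and P1 in pHes1_EPCs (-0.13 and -0.39) than the kinase (-1.06). Cdc25b had 22.9 in P1 pHes1_ENCs, 40.3 in P1 pHes1_EPCs, 3.98 in P4 pHes1_ENCs and 36.8 in P4 pHes1_EPCs. At P1 its difference between the fractions, 0.79, was below the threshold, and at P4 it was 2.93. The difference of these differences, 2.13, was the largest of the 58 genes (from 1.79 upward by the intervals). Foxm1, the transcription factor that activates many genes of G2 and mitosis, had 17.6, 70.5, 2.13 and 20.03, so that its level in P4 pHes1_EPCs was close to that in P1 pHes1_ENCs. The smallest P4 difference of the role was that of Aurka, a centrosomal kinase, at 1.86, and the role also holds Melk and Cdca3, at 2.88 and 3.12.

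Among the 9 genes of the spindle checkpoint and of anaphase the medians were 1.66 at P1 and 2.80 at P4, and 8 were called at each age. Ube2c, the ubiquitin-conjugating enzyme of the anaphase promoting complex, had 30.8, 104, 3.92 and 59.2 in the usual order of P1 pHes1_ENCs, P1 pHes1_EPCs, P4 pHes1_ENCs and P4 pHes1_EPCs. Its P1 difference was 1.72 and its P4 difference 3.61. Cdc20, an activator of the same complex, had P4 levels of 5.12 in pHes1_ENCs and 54.6 in pHes1_EPCs. The checkpoint kinases Bub1 and Ttk and the kinase-like Bub1b had differences of 2.80, 2.37 and 2.81 at P4. Mad2l1, which with Bub1b and Bub3 holds Cdc20 inactive, had a smaller one of 2.07.

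Bub3 stood apart from the other genes of the checkpoint. This protein of the checkpoint carries Bub1 and Bub1b to the kinetochore. Its FPKM was 34.2 in P1 pHes1_ENCs, 50.9 in P1 pHes1_EPCs, 27.7 in P4 pHes1_ENCs and 42.9 in P4 pHes1_EPCs, so that the 4 libraries lay close together. The differences between the fractions, 0.56 at P1 and 0.61 at P4, were the smallest of the 58 genes at both ages and passed the threshold at neither. In P4 pHes1_ENCs Bub3 was the most abundant of the 58 genes, while in P1 pHes1_EPCs 24 of them exceeded it.

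Espl1 and Pttg1 encode separase, the protease that cuts cohesin at anaphase, and its inhibitor securin. Espl1 had 5.92 in P1 pHes1_ENCs, 21.5 in P1 pHes1_EPCs, 0.581 in P4 pHes1_ENCs and 5.29 in P4 pHes1_EPCs. Pttg1 had 25.2, 58.7, 6.28 and 63.2 in the same order. From P1 to P4 in pHes1_EPCs the difference was -1.84 for Espl1, the lowest of the 58 genes, and 0.10 for Pttg1, the highest, whose range from the intervals, -0.12 to 0.33, held 0. In pHes1_ENCs the differences with age were -2.13 and -1.85. The order in pHes1_EPCs moved with transcript length, which is 6630 bases for Espl1 and 1674 for Pttg1. Once the trend of all genes with length was subtracted, Foxm1 was the lowest at -1.80. Spc24 (-1.79), Cenpk (-1.78), Cenph (-1.71), Top2a (-1.69) and Aurkb (-1.67) followed, and Espl1 came next at -1.65. Pttg1 was still the highest, at -0.29.

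The 9 genes of the centromere and kinetochore had medians of 1.92 at P1, the highest of the 7 roles, and 2.85 at P4, and all 9 were called at both ages. Spc25 and Spc24 belong with Nuf2 and Ndc80 to the Ndc80 complex, which binds the ends of microtubules. Spc25 (chr2:69031952-69044247 in NCBI37/mm9) had 21.7 in P1 pHes1_ENCs, 110 in P1 pHes1_EPCs, 3.22 in P4 pHes1_ENCs and 83.8 in P4 pHes1_EPCs. Its P4 difference, 4.33, was the largest of the 58 genes, and in P4 pHes1_EPCs it was the most abundant of them. Spc24 had 6.44, 38.2, 1.18 and 14.8, and its P1 difference of 2.40 was the largest of the 58. Ndc80 had the lowest value of all, 0.423 in P4 pHes1_ENCs (0.250 to 0.589), against 7.98 and 29.5 at P1 and 11.4 in P4 pHes1_EPCs.

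The subunits of the Ndc80 complex did not keep 1 ratio. Spc25 was 2.72 times as abundant as Ndc80 in P1 pHes1_ENCs, 3.75 times in P1 pHes1_EPCs, 7.63 times in P4 pHes1_ENCs and 7.37 times in P4 pHes1_EPCs. Their transcripts are 1527 and 2201 bases long, and these ratios do not allow for length. From P1 to P4 in pHes1_EPCs the differences of Spc25 and Ndc80 were -0.39 and -1.30. With the trend of all genes with length subtracted they were -0.79 and -1.53. Nuf2, the partner of Ndc80, had a P4 difference of 2.85. Spc24 was at 1.30 times the level of Ndc80 in pHes1_EPCs of both ages. Cenph and Cenpk, subunits of the inner kinetochore, differed by 2.37 and 2.39 between the fractions at P4. Cenpa, the histone H3 variant that marks centromeres, had a level of 51.6 in P1 pHes1_EPCs and 43.2 in P4 pHes1_EPCs. The motor Cenpe and the large coiled-coil protein Cenpf had P4 differences of 2.28 and 2.49.

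The chromosomal passenger complex, which corrects wrong attachments, had the highest median difference of the roles at P4. The median over its 4 genes was 1.87 for P1 and 3.50 for P4, and all 4 were called at both ages. Birc5, known as survivin, had 24.1 in P1 pHes1_ENCs, 104 in P1 pHes1_EPCs, 2.96 in P4 pHes1_ENCs and 51.8 in P4 pHes1_EPCs. Aurkb, the kinase of the complex, had 17.2, 71.6, 1.32 and 27.7, and its P4 ratio between the fractions was 21.0 (14.1 to 29.2). Cdca8, borealin, had a P4 difference of 3.37.

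Incenp, the scaffold of the same complex, followed a different course. Its FPKM was 16.7 in P1 pHes1_ENCs, 54.4 in P1 pHes1_EPCs, 6.32 in P4 pHes1_ENCs and 20.5 in P4 pHes1_EPCs, with a P1 difference of 1.65 and a P4 difference of 1.55. Relative to Aurkb, Incenp was at 0.968 in P1 pHes1_ENCs, 0.760 in P1 pHes1_EPCs and 0.740 in P4 pHes1_EPCs, but at 4.78 in P4 pHes1_ENCs. The scaffold was therefore above the kinase in FPKM in P4 pHes1_ENCs, where both were low.

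Spindle motors and spindle proteins (11 genes) had medians of 1.70 and 2.46, and all 11 were called at both ages. Kif22, a chromosome-bound kinesin, was the most abundant by mean, with 21.1 in P1 pHes1_ENCs, 70.8 in P1 pHes1_EPCs, 11.8 in P4 pHes1_ENCs and 35.5 in P4 pHes1_EPCs. Its P1 difference was 1.70, and its P4 difference of 1.52 was the smallest of the role. Tpx2, which activates Aurka and nucleates microtubules, and Nusap1, which bundles them, had P4 differences of 3.10 and 3.25. The bipolar spindle motors Kif11 and Kif15 had 2.42 and 2.45, Kif18a, Kif2c and Kif4 had 2.46, 2.86 and 2.47, and Hmmr, Aspm and Ckap2 had 2.39, 2.11 and 2.70. Aspm, a protein of the spindle poles, had 6.30, 18.5, 0.557 and 5.73 in the 4 libraries.

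The central spindle and cytokinesis role (8 genes) had medians of 1.66 and 2.60, with all 8 genes called at P1 and 7 at P4. Racgap1, which with Kif23 forms centralspindlin, had 30.6 in P1 pHes1_ENCs, 107 in P1 pHes1_EPCs, 5.95 in P4 pHes1_ENCs and 53.3 in P4 pHes1_EPCs. Prc1, which bundles the microtubules of the midzone, Ect2, which activates RhoA, and Anln, anillin, had P4 differences of 2.79, 2.87 and 2.28. Those of Kif23, Kif20a and Kif20b, kinesins of the midzone and midbody, were 2.89, 2.42 and 1.42. Kif14, a kinesin that binds Prc1 and citron kinase, was the least abundant gene in 3 of the 4 libraries, with 2.55, 7.60, 1.30 and 2.75. Its P1 difference was 1.28, its P4 difference of 0.71 was below the threshold, and the difference of these differences, -0.57 (-0.93 to -0.21), was the lowest of the 58 genes. With a pseudocount of 0.1 the P4 value of Kif14 was 1.03.

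The condensation role (6 genes) had medians of 1.72 at P1 and 1.96 at P4, the lowest of the 7 roles at P4, though all 6 genes were called at both ages. Top2a, the topoisomerase that untangles sister chromatids (chr11:98854261-98885503 in NCBI37/mm9), had 44.0 in P1 pHes1_ENCs, 167 in P1 pHes1_EPCs, 3.71 in P4 pHes1_ENCs and 50.5 in P4 pHes1_EPCs. Its P1 ratio was 3.80 (3.57 to 3.98) and its P4 ratio 13.6 (11.6 to 15.5). The subunits of condensin, by contrast, had P4 ratios of 4.38 for Smc2, 3.28 for Smc4, 2.88 for Ncapg, 4.72 for Ncapd2 and 6.01 for Ncaph. Smc4 kept an FPKM of 14.9 in P4 pHes1_ENCs, second to Bub3 among the 58 genes.

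The lines of 8 of the 58 genes share bases with the line of another gene, and the library preparation does not mark strand, so that reads in the shared bases cannot be assigned. The overlap is 863 bases between Ccna2 and Exosc9, 1595 between Kif20a and Cdc23, 208 between Nusap1 and Oip5, and 105 between Ncapg and Lcorl. Lcorl itself had 47.8 in P1 pHes1_ENCs, 13.0 in P1 pHes1_EPCs, 70.2 in P4 pHes1_ENCs and 16.8 in P4 pHes1_EPCs, a direction opposite to that of Ncapg. In P4 pHes1_ENCs Cdc23 had 25.2, and Brd8, which shares 187 bases with Kif20a, had 27.4, against 2.42 for Kif20a. Exosc9 had 13.2 there, against 5.99 for Ccna2. The part of these neighbors in the P4 levels of Ncapg, Kif20a and Ccna2 was not tested.

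The difference between the fractions was larger at P4 than at P1 for most of the genes. The ratio of pHes1_EPCs to pHes1_ENCs was larger at P4 in 53 of the 58 genes and smaller in 5. It ranged from 1.49 to 5.93 at P1 and from 1.55 to 26.9 at P4, and passed 10 for 0 genes at P1 and for 29 at P4. On the log2 scale the P4 difference minus the P1 difference had a median of 1.03, against 0.19 over all genes tested. It was above 0 for 52 of the 58 genes, against 8158 of the 12942 genes tested. It passed 1 for 30 genes, against 12.1% of all genes tested. This count depended on the scaling and the pseudocount, as did the share of all genes tested. It was 17 genes after quantile normalization (median 0.66), against 7.69% of all genes tested. It was 22 after rescaling to the same total, against 9.53%, and 45 with no pseudocount, against 19.7%. The range from the intervals lay above 0 for 43 genes, below 0 for Kif14 alone, and held 0 for 14. The genes that passed 1 were 8 of 11 in entry, 5 of 9 in checkpoint and anaphase, 5 of 9 in the kinetochore, 3 of 4 in the passenger complex, 5 of 11 in the spindle, 3 of 8 in cytokinesis and 1 of 6 in condensation. These role counts do not allow for transcript length, with which this contrast had a Spearman correlation of -0.32 over the 58 genes and -0.19 over all genes. With the length trend of all genes subtracted, 26 of the 58 genes passed 1, against 9.28% of all genes with a known length. The lowest values were those of Kif14, Ncapg (-0.24), Kif22 (-0.18), Incenp (-0.10), Kif20b (-0.06) and Smc4 (-0.05). These 6 genes came from 4 of the 7 roles.

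**Figure D2:**
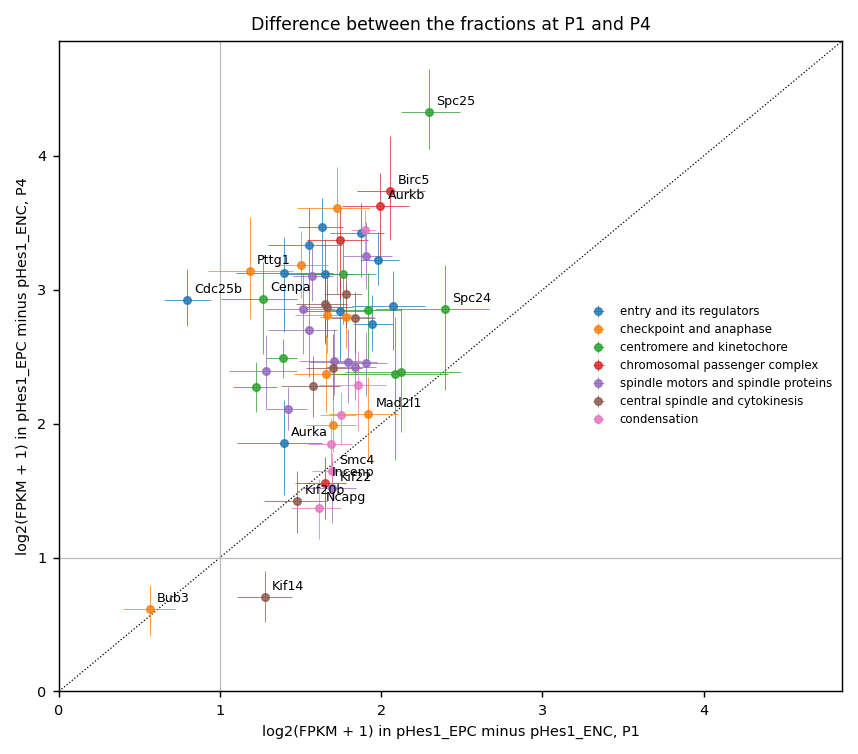
Difference of log2(FPKM + 1) between pHes1_EPCs and pHes1_ENCs at P1 (horizontal axis) and P4 (vertical axis) for the 58 genes, colored by role. Thin bars show the range that the Cufflinks intervals allow, grey lines mark the threshold of 1, and the dotted line marks equal differences. Most genes lie above the dotted line, Spc25 is the highest at 4.33, and Bub3 and Kif14 lie below the threshold at P4.

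From P1 to P4 the level was lower in 57 of the 58 genes in pHes1_EPCs, against 4752 of the 12942 genes tested. In pHes1_ENCs it was lower in all 58, against 6559 of the genes tested. The difference with age was lower in pHes1_ENCs than in pHes1_EPCs for 52 of the 58, against 8158 of the genes tested. This is no further result, since for each gene it is the same quantity as the P4 difference minus the P1 difference given above. In pHes1_EPCs the median difference with age was -1.07, against 0.17 over all genes tested, and 34 of the 58 genes were called lower at P4, against 4.33% of all genes tested. In pHes1_ENCs the median was -2.04, against -0.01, and 54 genes were called lower, against 10% of all genes tested. The median gene had a 2.14-fold lower FPKM at P4 in pHes1_EPCs and a 6.12-fold lower one in pHes1_ENCs. The range from the intervals lay below 0 for all 58 genes in pHes1_ENCs and for 56 in pHes1_EPCs, with Cdc25b and Pttg1 as the exceptions. These contrasts and those between the fractions use the same 4 libraries and are not independent of each other.

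**Figure D3:**
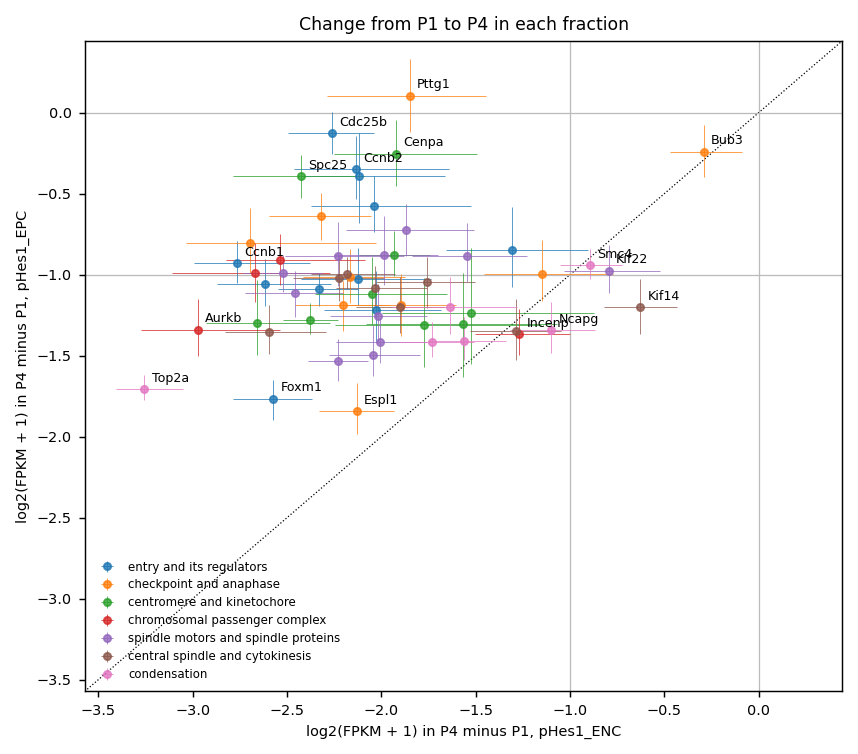
Difference of log2(FPKM + 1) between P4 and P1 in pHes1_ENCs (horizontal axis) and pHes1_EPCs (vertical axis) for the 58 genes, colored by role. Thin bars show the range that the Cufflinks intervals allow, grey lines mark 0 and -1, and the dotted line marks equal differences. Pttg1 is the highest on the vertical axis at 0.10, Espl1 the lowest at -1.84, Top2a the lowest on the horizontal axis at -3.26 and Bub3 the highest at -0.29.

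In pHes1_EPCs the values nearest to 0 were those of Pttg1, Cdc25b (-0.13), Bub3 (-0.24), Cenpa (-0.25), Ccnb2 (-0.35), Spc25 (-0.39) and Cdc25c (-0.39). The lowest values after that of Espl1 were those of Foxm1 (-1.77), Top2a (-1.71), Aspm (-1.54) and Kif15 (-1.50). By role, the genes called lower in pHes1_EPCs were 5 of 11 in entry, 4 of 9 in checkpoint and anaphase, 6 of 9 in the kinetochore, 2 of 4 in the passenger complex, 5 of 11 in the spindle, 7 of 8 in cytokinesis and 5 of 6 in condensation. These counts were made before the trend with transcript length, given below, was subtracted. Median transcript length was 2489 bases in entry, 2191 in checkpoint and anaphase, 1527 in the kinetochore and 2583.5 in the passenger complex. It was 4034 in the spindle, 3826.5 in cytokinesis and 4418.5 in condensation. In pHes1_ENCs the genes that were not called lower were Bub3 (-0.29), Kif14 (-0.63), Kif22 (-0.79) and Smc4 (-0.89). The lowest values there belonged to Top2a (-3.26), Aurkb (-2.97) and Ccnb1 (-2.77). Median-of-ratios scaling of the libraries moved the median of all genes tested in pHes1_EPCs from 0.17 to 0.01. It gave 47 genes called lower, against 6.20% of all genes tested, and with it Pttg1 stood at -0.09.

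The difference with age in pHes1_EPCs followed transcript length. Over 12384 genes with a known length its Spearman correlation with length was -0.39, and over the 58 genes it was -0.52. In pHes1_ENCs the same values were -0.17 and -0.01. These are correlations across genes, which share their library and are not replicates. The shortest of 20 length bins of all genes tested had a median difference with age of 0.71 in pHes1_EPCs, and the longest had -0.33. Among the mitosis genes, the 19 shortest (1251 to 2203 bases) had a median of -0.85 with 6 called lower, the middle 20 had -1.07 with 13, and the 19 longest (3698 to 11137 bases) had -1.34 with 15. Once the median of the same length bin was subtracted, these medians were -1.22, -1.22 and -1.24, and Pttg1 stood at -0.29. Then 44 of the 58 genes were called lower, against 5.91% of the 12384 genes. The same subtraction left the median P1 difference at 1.67 and the median P4 difference at 2.61.

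**Figure D4:**
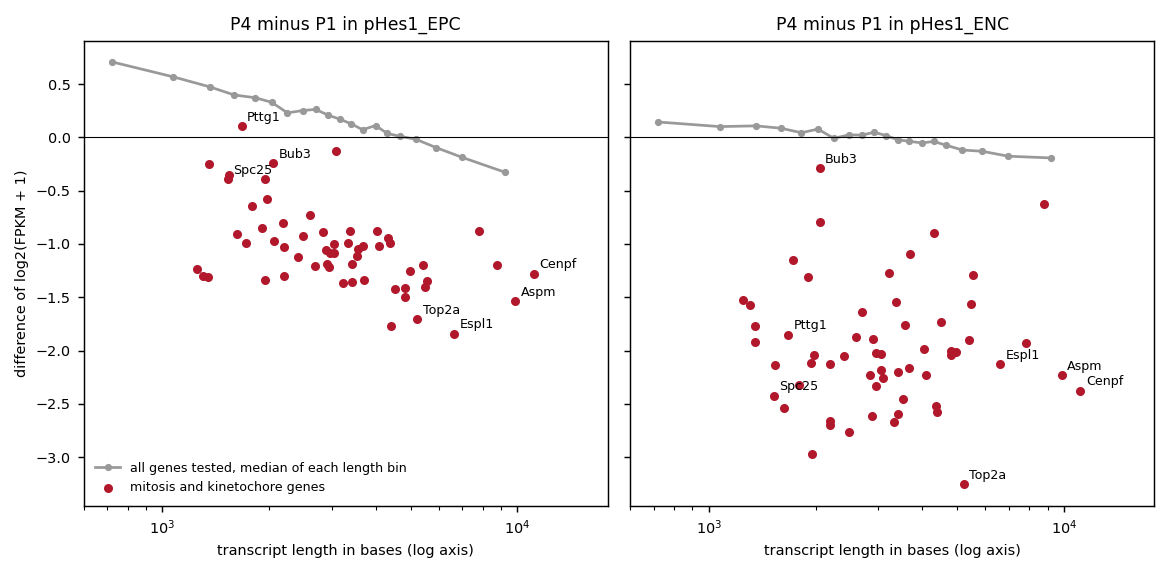
Difference of log2(FPKM + 1) between P4 and P1 against transcript length (log axis) in pHes1_EPCs (left) and pHes1_ENCs (right). Red points are the 58 mitosis genes and the grey line joins the medians of all genes tested in 20 bins of length. In pHes1_EPCs the line falls from 0.71 to -0.33 and the red points fall with it, whereas in pHes1_ENCs their Spearman correlation with length was -0.01.

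Markers of other cell types also differed with age. In pHes1_ENCs the photoreceptor markers rose from a sum of 794 to 4715, all 9 past the threshold, and the 6 red cell genes had sums of 214 and 514. In pHes1_EPCs the 9 photoreceptor markers rose from 52.8 to 935, and the 5 pigment epithelium markers summed to 3.37 at P1 and 54.0 at P4, mostly from Pmel and Dct, while Rpe65 was at 0.422. Markers of microglia and macrophages (7 genes) summed to between 2.09 and 10.3 in all libraries, and astrocyte markers (4 genes) to between 1.11 and 3.37. The 7 endothelial and pericyte markers summed to 64.1, 215, 14.9 and 195, with Kdr at 46.9, 209, 12.0 and 189 and Cldn5 at 16.3 in P1 pHes1_ENCs and 2.59 in P4 pHes1_ENCs, while Pecam1, Cdh5 and Tek were at 0.142 or less in every library and Cdh5 was at 0 in both P4 libraries. Of 9 amacrine and ganglion cell markers 7 were found, and these summed to between 13.5 and 68.3. Their sum in pHes1_ENCs was 61.7 at P1 and 68.3 at P4. Of the 6 among the genes tested, 5 were called lower at P4 in pHes1_ENCs, against 10% of all genes tested. The other, Slc6a9, rose there from 19.1 to 62.6. The part of these cell types in the changes of the mitosis genes was not tested.

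A wider list of 60 other mitosis genes, of which 57 were found, had medians of the same sign. Its median P1 difference was 1.63, with 49 genes called higher in pHes1_EPCs, against 10.3% of all genes tested. Its median P4 difference was 2.08, with 46 genes called, against 16.6%. Its median difference with age was -1.07 in pHes1_EPCs and -1.52 in pHes1_ENCs. The P4 difference minus the P1 difference had a median of 0.32, against 0.19 over all genes tested. It passed 1 in 12 of the 57 genes, against 12.1% of all genes tested. It was below 0 in 20 of the 57, a share close to the 4784 of 12942 genes tested. As plain ratios of FPKM, however, the fractions were further apart at P4 in 42 of the 57 and closer in 15. The median ratio was 3.36 at P1 and 7.93 at P4. The median FPKM of the list in P4 pHes1_ENCs was 1.52, where the log2(FPKM + 1) scale understates differences. Mki67, the proliferation marker, had 35.2 in P1 pHes1_ENCs, 133 in P1 pHes1_EPCs, 3.16 in P4 pHes1_ENCs and 40.0 in P4 pHes1_EPCs. The highest P4 difference of that list was that of Pbk, a mitotic kinase, at 3.84, and the lowest that of Ncapd3, a subunit of condensin II, at -0.38.

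Genes of DNA replication (40 genes) were also higher in pHes1_EPCs, but most of their differences on the log2 scale were smaller at P4 than at P1. Their median P1 difference was 2.01 with 39 genes called, against 10.3% of all genes tested. Their median P4 difference was 1.59 with 31 called, against 16.6%. The P4 difference minus the P1 difference had a median of -0.30 and was below 0 for 30 of the 40. It was below 0 for 4784 of the 12942 genes tested, and above 0 for 52 of the 58 mitosis genes. As plain ratios, 23 of the 40 replication genes were smaller at P4, and the median ratio was 4.51 at P1 and 4.16 at P4. The median difference with age of the replication genes was -1.35 in pHes1_EPCs and -0.91 in pHes1_ENCs. Their median was thus lower in the positive cells and that of the mitosis genes lower in the negative cells. For each gene this contrast equals the P4 difference minus the P1 difference, so it is no separate result. Uhrf1, which maintains DNA methylation at replication, had the highest P4 difference of the list, 3.73, and Rfc3, a clamp loader subunit, the lowest, 0.57. Whether the lists differ cannot be tested with 1 library in each group.

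Complexes that work in mitosis and are also used outside it form 2 further lists, so short that their counts lie near the 10.3% and 16.6% of all genes tested that were called higher. Of the 13 genes of the anaphase promoting complex (12 core subunits and the activator Fzr1), 0 were called at either age, and the P4 differences ran from -0.07 for Anapc1 to 0.96 for Anapc5. Of the 9 genes of cohesin and its regulators, 0 were called higher in pHes1_EPCs, and Nipbl, the loader, was called lower at P4 with -1.03. Ube2c, the enzyme that passes ubiquitin on, and the activator Cdc20 had P4 differences of 3.61 and 3.18, whereas Fzr1, the other activator of this complex, had 0.01.

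**Figure D5:**
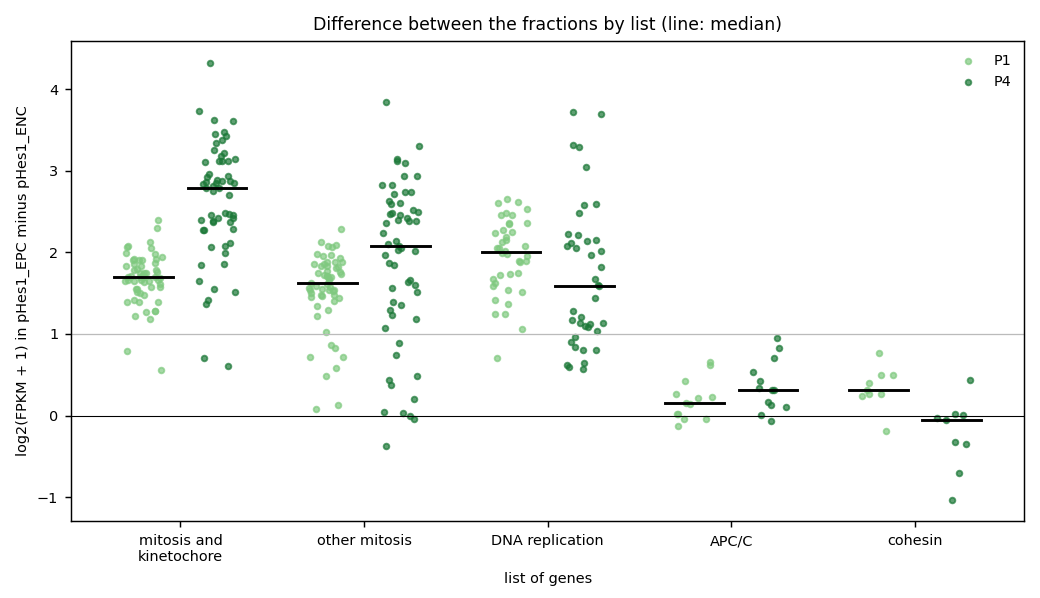
Difference of log2(FPKM + 1) between pHes1_EPCs and pHes1_ENCs at P1 (light green) and P4 (dark green) for each gene of 5 lists. Each point is 1 gene, black lines are medians, and the grey line marks the threshold of 1. The median of the 58 mitosis genes is 1.70 at P1 and 2.79 at P4, that of DNA replication is 2.01 and 1.59, and the genes of the anaphase promoting complex (APC/C) and cohesin stay below 1.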

How the data were processed

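RNA-seq of 4 libraries of sorted retinal cells was used. Per the labels, cDNA was made with random primers and sequenced as single-end reads of 36 bases. Per the submitters' processing notes and the paper's methods, the authors used bcl2fastq 1.8.4, aligned to NCBI37/mm9 with TopHat2 2.0.8b and deposited FPKM values estimated by Cufflinks 2.1.1, with a 95% interval and a status. The annotation is not given in the sources used here. The deposited FPKM were not rescaled. Each table held 23021 lines with 22558 symbols. Small RNA lines (784) were left out, and 235 symbols with several lines were represented by their highest FPKM.

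Differences of log2(FPKM + 1) were computed with Python 3.11.15, pandas 2.3.3 and numpy 2.4.6, and called past 1. With 1 library per group no test was run. Ranges set the lower bound of one library against the upper bound of the other. The median width of an interval to either side was 4.76% to 18.3% of the FPKM of a mitosis gene. Cufflinks listed the FPKM above the upper bound of its own interval for 6 mitosis genes in P1 pHes1_ENCs, 26 in P1 pHes1_EPCs and 12 in P4 pHes1_EPCs. The calling step was also run on simulated data. Variation between libraries could not be estimated from 1 library per group, so that run does not show how reliable the calls are. Transcript lengths came from GENCODE vM1 on NCBIM37, which is NCBI37/mm9, and promoters from RefSeq on GRCm38.p6, matched by symbol.

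The members, lists and alternatives were chosen with earlier results of these data known. The transcript length alternative was added after the data had been seen. Values in all libraries are given for the most abundant gene of each role, the genes with the largest and smallest value of each contrast, genes not called at P4, and Cdk1, Ccnb1, Plk1, Aurkb, Top2a and Foxm1. Other genes named with such values, among them Ndc80, Incenp and Aspm, were picked after their values were seen. Alternatives were other pseudocounts, scalings, filters and ways to treat lines.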

Additional observations from a re-analysis of the deposited data

Results flagged for a closer look

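Pttg1, which encodes securin, had values of opposite sign with age in the sorted fractions for FPKM as deposited. From P1 to P4 its difference of log2(FPKM + 1) was 0.10 in pHes1_EPCs (FPKM of 58.7 and 63.2) and -1.85 in pHes1_ENCs (25.2 and 6.28). The other 57 mitosis genes were lower at P4 in both fractions. With 1 library in each group the difference between the fractions was not tested, and the range from the Cufflinks intervals of the value in pHes1_EPCs held 0. That value turned negative with median-of-ratios scaling (-0.09), with quantile normalization (-0.18), after rescaling to the same total (-0.23) and with the trend with transcript length subtracted (-0.29), and the median of all genes tested in this contrast was 0.17.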

How the results depend on the processing

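The direction of each median and of each count was the same under every alternative that was run. The median differences of the mitosis genes ranged from 1.62 to 1.78 between the fractions at P1, from 2.47 to 3.30 at P4, from -1.40 to -1.06 with age in pHes1_EPCs, from -2.61 to -1.88 with age in pHes1_ENCs, and from 0.66 to 1.58 for the P4 difference minus the P1 difference. A pseudocount of 0.1 moved the medians to 3.19 at P4, -2.50 with age in pHes1_ENCs and 1.47 for the difference of differences, and no pseudocount moved them to 3.30, -2.61 and 1.58. The median with age in pHes1_EPCs was -1.40 after rescaling to the same total and -1.26 with median-of-ratios scaling. It was -1.28 with quantile normalization and -1.23 with the trend with transcript length subtracted. The genes called lower ranged from 33 to 49. The 33 came with an FPKM of at least 10 (against 4.34% of all genes tested) and the 49 after rescaling to the same total (against 7.65%). The difference of differences passed 1 for 17 genes with quantile normalization and for 45 with no pseudocount, where the main setting gave 30. The shares of all genes tested were 7.69%, 19.7% and 12.1% in the same order. Rescaling to the same total moved the median of all genes tested from 0.15 to -0.09 at P4 and from 0.17 to -0.10 with age in pHes1_EPCs. A CHR string lay before the start in 19 genes, against 37 in the whole window. Between the fractions at each age and with age in pHes1_ENCs all 58 genes kept their sign in every alternative, with age in pHes1_EPCs 57 did, with Pttg1 at -0.23 after rescaling to the same total, and for the difference of differences 51 did. Kif14 passed 1 at P4 with a pseudocount of 0.1 (1.03), with none (1.08) and with the length trend subtracted (1.11). No paired analysis was possible because each group is 1 library. Intervals were widest relative to the FPKM in P4 pHes1_ENCs, where they reached 49.9% of it to either side. The median FPKM of the mitosis genes was lowest there, at 2.27.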
